A study of Mus musculus with 4 samples.

Results

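Of the Leydig cell programme, 10 genes were examined in chromatin accessibility data from mouse pachytene spermatocytes. They are Star, Cyp11a1, Cyp17a1, Hsd3b1, Hsd3b6, Lhcgr, Insl3, Nr5a1, Nr2f2 and Tcf21. They were chosen as a list of symbols, all 10 of which are among the 49943 genes of the GRCm38.p6 annotation, as a check of signal from interstitial cells. For each gene, all peaks inside it or within 1 kb of either of its ends were taken from 4 ATAC-seq peak lists. ATAC-seq uses a transposase to cut open chromatin, and a peak is a stretch where cuts pile up above the surroundings.

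The cells were isolated from mouse testis as pachytene spermatocytes, germ cells in mid-prophase of meiosis. They were kept for 12 h with 2.5 µM BMH-21, which inhibits RNA polymerase I, or with the vehicle DMSO (mock). Each group had 2 libraries, described as biological replicates, from about 10000 cells each and amplified with 14 PCR cycles. The labels give no strain, age, genotype or purity of the isolated cells and do not say whether animals were pooled.

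Leydig cells lie between the seminiferous tubules and make testosterone from cholesterol under luteinizing hormone. The hormone acts through the receptor LHCGR, the transporter STAR brings cholesterol to the inner mitochondrial membrane, and CYP11A1, the 3β-hydroxysteroid dehydrogenases and CYP17A1 carry out successive steps towards androgens. NR5A1 (steroidogenic factor 1) is a nuclear receptor that activates many of these genes. Spermatocytes are not steroid-producing cells, so these genes are not markers of the cell type on the label. Which cells gave the peaks at these genes was not tested.

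In mock there were 109230 and 117905 peaks per list, against 51234 and 55459 after BMH-21, so any gene had fewer chances of a peak after BMH-21. Median peak widths were 351 to 396 bp. Of 22 genes expressed in pachytene spermatocytes, such as Sycp1, Sycp3 and Dmc1, 19 had a peak at a gene end in all 4 libraries and 0 had one in the mock libraries alone. In bulk libraries, fewer cells of a type and less open chromatin per cell cannot be told apart.

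An end peak (within 1 kb of either end of the gene) was present in both mock libraries at 7 of the 10 genes, beside 69.5% of 20665 autosomal protein-coding genes. All 10 genes are autosomal, so autosomal genes serve as the background throughout. In 3 of the 7 (Star, Nr5a1 and Tcf21) neither BMH-21 library had such a peak, which is here called mock-only. That share was 42.9%, where 11.7% of the autosomal protein-coding genes with both mock peaks were mock-only. When every list was shortened to its 51234 strongest peaks by q-value, the length of the shortest list, 3 of the 10 genes (Lhcgr, Nr2f2 and Tcf21) still had an end peak in both mock libraries and 1 of these 3 (Tcf21) was mock-only, beside 7.18% of the background. Another 4 genes (Cyp11a1, Lhcgr, Insl3 and Nr2f2) had an end peak in all 4 libraries, a share of 40.0% beside 58.7% of autosomal protein-coding genes. The remaining 3 genes (Cyp17a1, Hsd3b1 and Hsd3b6) had no end peak in any library. In the full lists, none of the 10 genes had an end peak in BMH-21 libraries alone. That pattern was found in 2.85% of the autosomal protein-coding genes without an end peak in mock libraries. In the shortened lists Cyp11a1 showed it. Its end peak ranked 90208 and 87893 by q-value in the mock lists and 18302 and 16365 in the BMH-21 lists. With so few genes these shares are a description and were not tested.

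**Figure D1:**
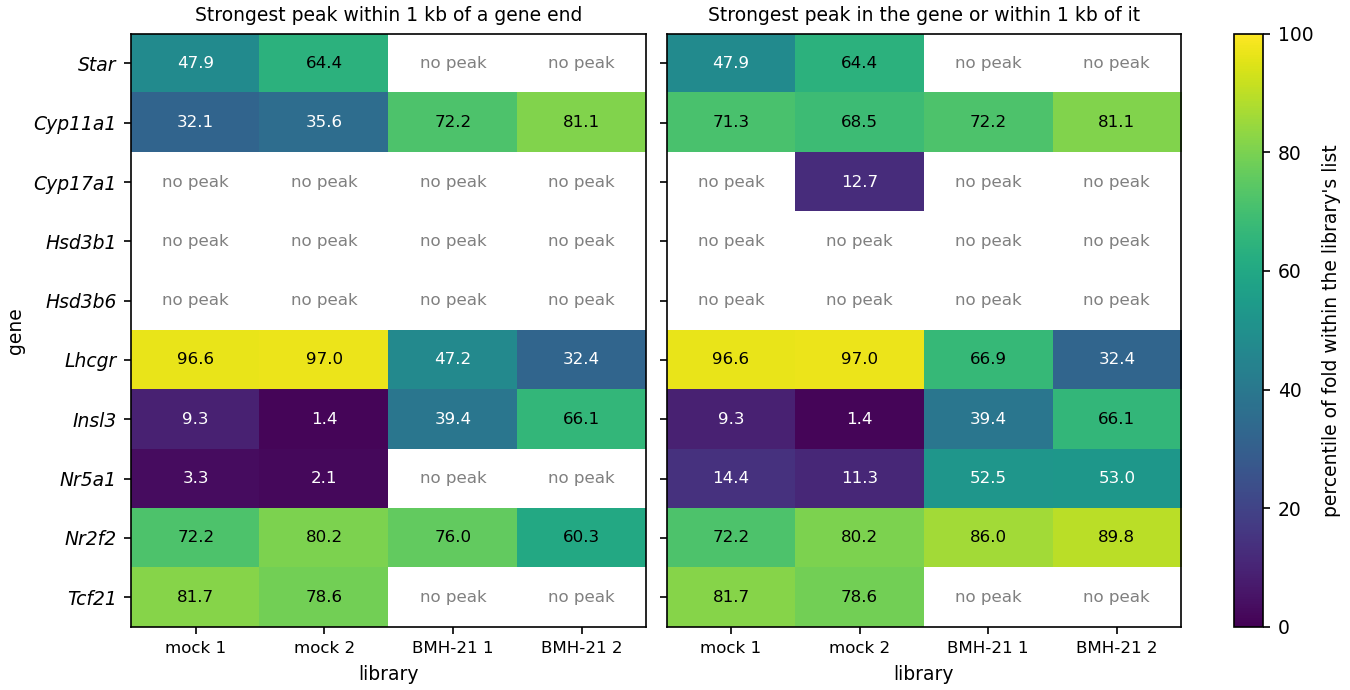
Within-list percentile of the strongest peak at each of the 10 genes (rows) in each of the 4 libraries (columns), for end peaks (left) and for all peaks in the gene or within 1 kb of it (right). A percentile of 100 is the highest fold of a library's list, and cells without colour had no peak. Hsd3b1 and Hsd3b6 are blank in every library, Star and Tcf21 in both BMH-21 libraries, Nr5a1 in both BMH-21 libraries at its ends but not in the gene, and Lhcgr goes from 96.6 and 97.0 in mock to 47.2 and 32.4 at its gene end.

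The upstream sequences of 5 of the genes are shown first, because they cover different outcomes at a gene start. Cyp11a1 had a higher start peak after BMH-21, Lhcgr had a lower one, Insl3 had one whose pileup was lower but whose fold was higher, Tcf21 had a mock-only peak just inside its start, and Hsd3b1 had no peak at all. Each run gives the 250 bases before the annotated start from RefSeq (GRCm38.p6), 5′ to 3′ on the strand of the gene, and 7 of the 10 genes were matched in that table. Capitals mark matches, on either strand, to the letters AAGGTCA (the extended element of NR5A1), AGGTCA (the core element of nuclear receptors, contained in the former), AGATAA or its variant TGATAA (both of GATA factors), TGACGTCA (the cAMP response element), CCAAT (the box of that name) or TATAAA (the TATA box). The windows are chr9:57997774-57998023 (plus strand) for Cyp11a1, chr17:88792015-88792264 (minus strand) for Lhcgr, chr8:71689002-71689251 (plus strand) for Insl3, chr10:22820144-22820393 (minus strand) for Tcf21 and chr3:98859795-98860044 (minus strand) for Hsd3b1.
Cyp11a1: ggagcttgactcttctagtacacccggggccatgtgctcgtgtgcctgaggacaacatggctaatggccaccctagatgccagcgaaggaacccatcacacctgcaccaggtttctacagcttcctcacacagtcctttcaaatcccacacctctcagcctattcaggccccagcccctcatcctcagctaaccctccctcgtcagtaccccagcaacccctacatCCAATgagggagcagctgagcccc
Lhcgr: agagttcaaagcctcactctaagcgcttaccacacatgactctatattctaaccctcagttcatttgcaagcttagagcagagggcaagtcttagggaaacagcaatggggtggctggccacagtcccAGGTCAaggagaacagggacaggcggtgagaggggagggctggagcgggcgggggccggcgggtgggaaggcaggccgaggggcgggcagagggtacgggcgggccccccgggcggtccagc
Insl3: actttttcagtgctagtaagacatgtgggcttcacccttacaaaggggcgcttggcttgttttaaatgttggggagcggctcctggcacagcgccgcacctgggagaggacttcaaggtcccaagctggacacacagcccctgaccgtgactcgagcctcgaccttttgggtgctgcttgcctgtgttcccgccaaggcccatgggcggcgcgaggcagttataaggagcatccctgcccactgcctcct
Tcf21: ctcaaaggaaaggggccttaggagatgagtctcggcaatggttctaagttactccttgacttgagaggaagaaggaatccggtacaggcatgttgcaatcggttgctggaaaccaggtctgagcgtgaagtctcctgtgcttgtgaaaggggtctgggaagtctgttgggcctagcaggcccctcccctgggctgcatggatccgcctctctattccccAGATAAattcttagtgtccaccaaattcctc
Hsd3b1: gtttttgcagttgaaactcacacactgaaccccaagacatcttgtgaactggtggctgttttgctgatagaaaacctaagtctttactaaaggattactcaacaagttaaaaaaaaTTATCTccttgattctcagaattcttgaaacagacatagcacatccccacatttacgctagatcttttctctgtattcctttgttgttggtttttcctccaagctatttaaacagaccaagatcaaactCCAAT

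Counting the base before the start as -1, the Lhcgr window held AGGTCA at -122 and the Tcf21 window AGATAA at -31. Hsd3b1 held AGATAA on the opposite strand at -134 and CCAAT at -5, Cyp11a1 held CCAAT at -24, and Insl3 held none of the 7 motifs. Of the 2 remaining matched genes, Hsd3b6 had AGATAA at -31 and Nr2f2 had CCAAT at -162 and, on the opposite strand, at -205. A second, inner start of Cyp11a1, at position 58014952 of chromosome 9, had AGGTCA at -28. These are common letters: among all 32851 promoters of the table, 14.0% held AGGTCA, 9.99% AGATAA and 33.8% CCAAT. The motifs AAGGTCA (4.08% of promoters), TGATAA (7.94%), TGACGTCA (1.55%) and TATAAA (12.4%) were not among the letters of any of these windows. A match is only a match of letters and does not show that a factor binds.

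The windows also differed in CpG content. Lhcgr held 12 CpG dinucleotides at 63.2% GC and Insl3 11 at 59.2%, whereas Cyp11a1 held 4 at 57.6%, Tcf21 5 at 52.4%, Hsd3b6 2 at 47.2%, Hsd3b1 1 at 36.4% and Nr2f2 1 at 50.0%. Across the table, promoters with a peak in all 4 libraries had a median of 18 CpG, those that were mock-only 7, and those without a peak in any library 2. The members with a peak in the 300 bp around their start in all 4 libraries (Cyp11a1, Lhcgr and Insl3) thus all lay below the median of their class. The windows of Hsd3b1, Hsd3b6, Nr2f2 and the inner start of Cyp11a1 had no peak in any library, as did 47.1% of autosomal promoter windows. In mock replicate 2 a peak began at 58015015, just past the end of the inner Cyp11a1 window at 58015001. Of the 3 members' windows with a peak in both mock libraries, 0 were mock-only, beside 13.4% of such windows on the autosomes.

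Star, the cholesterol transporter, had peaks in the mock libraries alone. The gene lies at chr8:25808474-25815982. Just beyond its higher-coordinate end, mock replicate 1 had a peak at chr8:25816635-25816834 and mock replicate 2 at chr8:25816645-25816889. Their folds, meaning the authors' ratio of summit pileup over the background around the peak, were 4.27 and 5.05. In percentiles of the fold within each list these were 47.9 and 64.4, close to the middle of the lists. Both summits lay 758 and 804 bp past the gene and inside Ash2l, a subunit gene of histone methyltransferase complexes. The nearer end of Ash2l lies 18 bp from Star, so the peak cannot be assigned to one of the pair. Ash2l itself had an end peak in all 4 libraries. Mock replicate 2 had a further, weak peak inside Star, 664 bp from its lower-coordinate end, with a fold of 2.99 at percentile 11.5. The nearest BMH-21 peaks were 16905 and 3230 bp from the gene.

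Cyp11a1 encodes the enzyme that converts cholesterol to pregnenolone, the first step of steroid synthesis. Its start, at position 57998024 of chromosome 9, carried a peak in all 4 libraries, with summits 17, 17, 14 and 1 bp downstream of the start. Given in the order mock 1, mock 2, BMH-21 1 and BMH-21 2, the folds were 3.73, 3.91, 5.95 and 7.12. The corresponding percentiles were 32.1, 35.6, 72.2 and 81.1. Both BMH-21 values were above both mock values, and the peaks were also wider after BMH-21, with 928 and 614 bp beside 329 and 349 bp. The share of background regions that do so by fold or width was not counted. By summit pileup over the genome-wide background it was 30.0% of regions in all 4 libraries. BMH-21 replicate 2 had another peak from 57998441 to 57998860, just downstream.

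Inside Cyp11a1, both mock libraries had a peak at 58008388 to 58008621 and at 58008301 to 58008513, absent from the BMH-21 libraries. Its folds were 5.42 and 3.39. In mock replicate 2 it was close to the bottom of the list by q-value, at rank 111650 of 117905. Mock replicate 2 alone had peaks at 57999770 to 58000089 and at 58015015 to 58015422. The mock-only call inside the gene and the higher peak at its start thus stood side by side in a single gene. A mock-only call inside a gene was the common outcome, at 75.6% of such background regions in both mock libraries.

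Of the members, the genes of enzymes that act after CYP11A1 (Cyp17a1, Hsd3b1 and Hsd3b6) showed almost no peaks. Cyp17a1 (chr19:46667165-46673000), whose product has the 17α-hydroxylase and lyase activities needed for androgens, had a single peak, in mock replicate 2. That peak, at 46668600 to 46668900, had a fold of 3.02 at percentile 12.7 and lay at one end of the overlapping noncoding gene Gm41857, so it cannot be assigned to one of the pair. The nearest peaks in the other libraries were 11513, 16594 and 16572 bp away.

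Hsd3b1 (chr3:98842356-98859794, minus strand), the main gonadal and adrenal 3β-hydroxysteroid dehydrogenase of the mouse, had no peak in any library. Its nearest peaks were 228305, 81501, 281108 and 281108 bp away. Hsd3b6 (chr3:98805504-98814443, minus strand), the isoform of adult Leydig cells, likewise had none, with nearest peaks at 191453, 126852, 326459 and 326459 bp. Peaks were thus missing not only from both genes but from the stretch around them. A gene without any peak in the gene or within 1 kb was not rare, since 18.5% of autosomal protein-coding genes had none in any library.

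Lhcgr, the receptor for luteinizing hormone, had the end peak with the highest fold of the 10 genes in both mock libraries. The gene spans chr17:88716384-88792059 on the minus strand, and its start peak covered 88791385 to 88792242 and 88791527 to 88792281 in mock and 88791795 to 88792178 and 88791777 to 88792280 after BMH-21. The folds were 10.1 and 10.6 in mock and 4.40 and 3.91 after BMH-21. In rank by fold these peaks were number 3676 and 3574 in the mock lists and number 26737 and 37124 in the BMH-21 lists, that is, percentiles 96.6, 97.0, 47.2 and 32.4. The mock and BMH-21 values did not overlap, and the peak was narrower after BMH-21 (384 and 504 bp beside 858 and 755 bp). How many background regions separate in this way by fold or width was not counted. By summit pileup over the genome-wide background, 47.4% of regions in all 4 libraries had both BMH-21 values below both mock values.

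A second Lhcgr site lay inside the gene, with its summit 37211 bp downstream of the start in mock replicate 1. It was present in 3 libraries with folds of 4.57, 4.73 and 5.50 and absent from BMH-21 replicate 2. By fold, the BMH-21 library that had the peak was above both mock libraries at this site, unlike at the gene start. By summit pileup it was below both, with 29 fragments beside 32 and 37 in mock. Mock replicate 2 had 2 more peaks inside the gene, with folds of 4.52 and 3.59.

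Insl3 encodes a peptide hormone of Leydig cells that drives testis descent. It is a short gene of 1326 bp (chr8:71689252-71690577, plus strand) within the last part of Jak3, a kinase gene of cytokine signalling on the same strand, and its start peak therefore also lies inside Jak3. The peak was in all 4 libraries, with summits 74, 123, 80 and 70 bp downstream of the Insl3 start. The folds were 2.80, 2.13, 4.09 and 5.51, at percentiles 9.30, 1.42, 39.4 and 66.1. By fold, the peak was near the bottom of the mock lists and in the middle of the BMH-21 lists.

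The pileup itself, recovered from the fold and p-value of each peak, gave the other direction at Insl3. The summit pileups were 106, 80, 44 and 54 fragments, and the local backgrounds 37.3, 37.0, 10.0 and 8.98 fragments. The low mock folds thus came with a tall summit over a high local background.

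Nr5a1, the nuclear receptor that activates steroidogenic genes, showed the same combination. The gene lies at chr2:38692656-38714542. At its higher-coordinate end, both mock libraries had a peak, at 38714227 to 38714524 and 38714244 to 38714506, and neither BMH-21 library did. The folds were 2.34 and 2.17, at percentiles 3.27 and 1.65, among the lowest of the lists, although the summit pileups were 98 and 85 fragments over local backgrounds of 41.4 and 38.7.

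Inside Nr5a1, a region at 38711577 to 38712511 had a peak in all 4 libraries. The folds were 2.86, 2.97, 4.62 and 4.73, higher in both BMH-21 libraries, while the pileups were 130, 126, 58 and 57 fragments, lower in both. A neighbouring region at 38710609 to 38710934 in mock replicate 1 was in 3 libraries, with folds of 2.51 and 2.50 in mock and 3.82 in BMH-21 replicate 2. Mock replicate 2 also had a weak peak beyond the lower-coordinate end, with a fold of 2.24 at percentile 2.14. In total, 4 and 6 peaks lay in and around Nr5a1 in mock and 1 and 2 after BMH-21, so the gene was mock-only at its ends but not as a whole.

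Nr2f2 encodes COUP-TFII, a nuclear receptor of interstitial progenitors and Leydig cells. The gene (chr7:70351946-70366746, minus strand) had a wide region of peaks in its middle in all 4 libraries, from 70359744 to 70362353, with folds of 4.26, 4.30, 7.72 and 8.69. A region beyond its 3′ end, 70350859 to 70351419, was also in all 4, with folds of 5.45, 6.30, 6.34 and 5.12. One more region upstream of the annotated start, 70367660 to 70367975, inside the noncoding gene B130024G19Rik, was mock-only with folds of 3.47 and 3.48. Its middle and its 3′ side thus had peaks after BMH-21 while its upstream side did not.

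Tcf21 encodes a basic helix-loop-helix factor of interstitial and peritubular progenitors. This gene of 2881 bp (chr10:22817263-22820143, minus strand) lies inside the noncoding gene Gm10824 and had 2 separate mock-only regions. The one near the start had folds of 6.41 and 6.12, at percentiles 81.7 and 78.6, and its summits lay 483 and 458 bp downstream of the start. The one near the 3′ end had folds of 3.37 and 5.07, at percentiles 22.1 and 64.5. The nearest BMH-21 peaks were 73627 and 67053 bp from the gene. By fold, Tcf21 was the member with the strongest mock-only end peak. By summit pileup its start peak, with 39 and 39 fragments, was below the mock-only end peak of Nr5a1, with 98 and 85. Tcf21 was the only member that was mock-only when all lists were shortened to the same 51234 peaks.

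**Figure D2:**
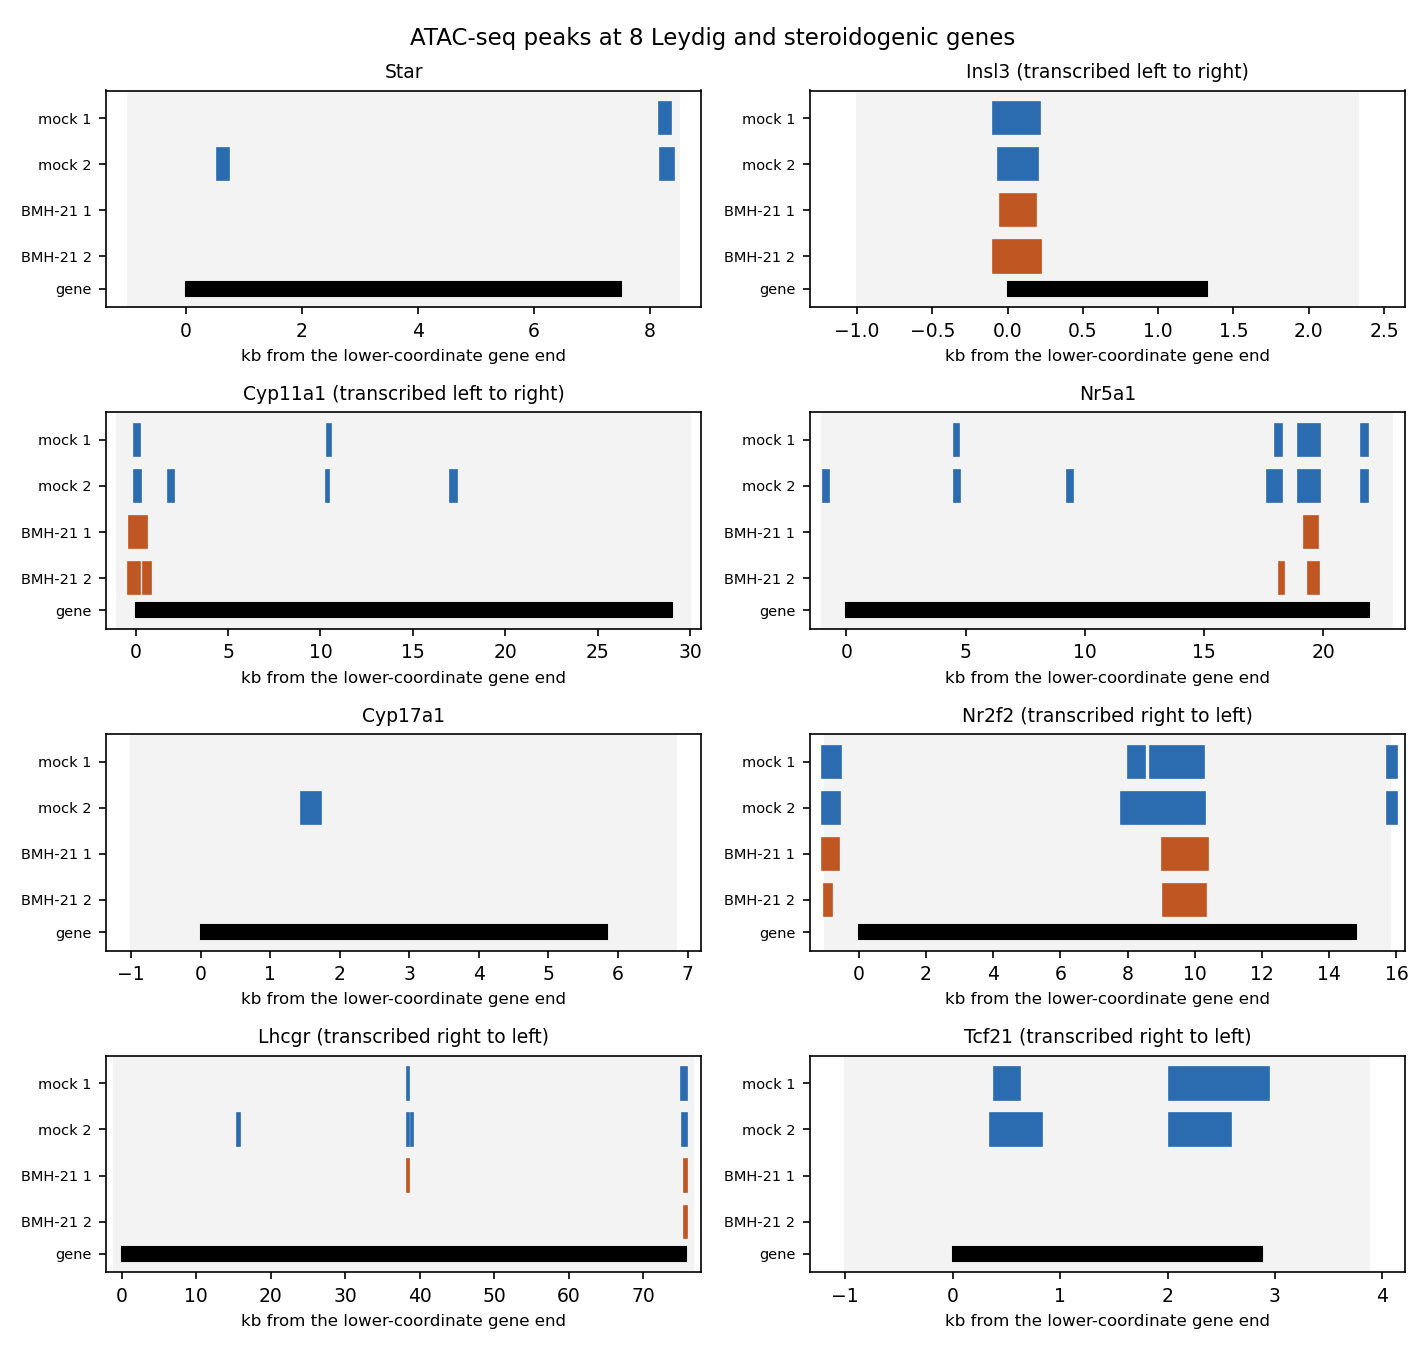
Peaks at the 8 genes that had any, by library (blue, mock; orange, BMH-21), with the gene as a black bar and the searched stretch (gene plus 1 kb on either side) shaded. The horizontal axis is the distance in kb from the lower-coordinate end of the gene, on a scale of its own in each panel. Star and Tcf21 have peaks in the mock rows only, while Cyp11a1, Insl3, Lhcgr, Nr5a1 and Nr2f2 have peaks in all 4 rows.

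Over the whole gene with 1 kb on either side, peaks were present in both mock libraries at 7 of the 10 genes, and 2 of these (Star and Tcf21) had none in either BMH-21 library. The background share of this pattern among autosomal protein-coding genes was 9.05%. The peaks at the 10 genes formed 23 separate regions. Of the 15 regions in both mock libraries, 7 were mock-only and 6 were in all 4 libraries, whereas 59.2% of regions at autosomal protein-coding genes were mock-only. Divided by place, 5 of 9 regions at gene ends were mock-only, beside 26.5% in the background, and 2 of 6 regions inside genes, beside 75.6%. The members' share was above the background at the ends and below it inside the genes. Another 8 regions were each in a single library, which was mock replicate 2 in every case.

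The number of peaks at the 10 genes was 16 and 23 in mock and 7 and 8 after BMH-21. The means were 19.5 ± 4.95 (SD, n = 2) and 7.5 ± 0.707 (SD, n = 2), a ratio of 0.385, while whole lists had a ratio of 0.470. Every mock count exceeded both BMH-21 counts. The two-sided exact permutation test gave p = 0.33, the smallest that 2 against 2 libraries allow, so no such test can pass 0.05 here. The bases covered by these peaks were 7818 and 10627 in mock and 4174 and 4029 after BMH-21, out of 205303 searched, a ratio of 0.445 (exact permutation p = 0.33). With each list shortened to its 51234 strongest peaks by q-value, the counts became 9, 9, 7 and 8, so that the difference of -12 became -1.5 and the ratio 0.833. The ratio of bases became 0.628.

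For the 6 regions held by all 4 libraries, heights were compared as the summit pileup divided by the genome-wide background of the library, called the level here. It is a height at a single base and does not depend on gene length. At the Lhcgr start the levels were 17.6 and 17.2 in mock and 5.16 and 4.62 after BMH-21. That is a ratio of 0.281, or -1.83 on the log2 scale, which stood at percentile 2.63 of the 16483 regions in all 4 libraries at autosomal protein-coding genes. The median log2 ratio of those regions was -0.11, with deciles of -1.22 and 0.55.

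At the Cyp11a1 start the levels were 5.07 and 5.56 in mock and 8.08 and 9.24 after BMH-21, a ratio of 1.63 and a log2 ratio of 0.70, at percentile 93.5. Cyp11a1 was the only one of the 6 regions with both BMH-21 levels above both mock levels, a pattern of 30.0% of the background regions. Lhcgr, Insl3, the inner region of Nr5a1 and the 3′ region of Nr2f2 had both BMH-21 levels below both mock levels, as did 47.4% of the background regions.

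At Insl3 the levels were 23.3, 18.5, 9.87 and 13.1, a log2 ratio of -0.87 at percentile 17.1. At the inner region of Nr5a1 they were 28.6, 29.2, 13.0 and 13.9, a log2 ratio of -1.11 at percentile 12.0. Both regions had lower levels but higher folds after BMH-21, with log2 ratios by fold of 0.96 at Insl3 and 0.68 at Nr5a1, so their direction depends on the measure. At the 3′ region of Nr2f2 they were 11.7, 13.4, 9.87 and 8.75, a log2 ratio of -0.43. In the middle of Nr2f2 the groups overlapped in level, with 24.2, 26.0, 24.5 and 28.4. The first value comes from a mock replicate 1 peak beside the BMH-21 peaks, and the peak of that library that overlaps them had a level of 22.7. By fold, the middle of Nr2f2 was higher in both BMH-21 libraries (log2 ratio 0.94), and at its 3′ region the groups overlapped (log2 ratio -0.037). The exact permutation test of the levels gave p = 0.67 for the middle of Nr2f2 and p = 0.33 for each of the other 5 regions. After Benjamini-Hochberg adjustment over the 6 comparisons these were 0.67 and 0.4.

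**Figure D3:**
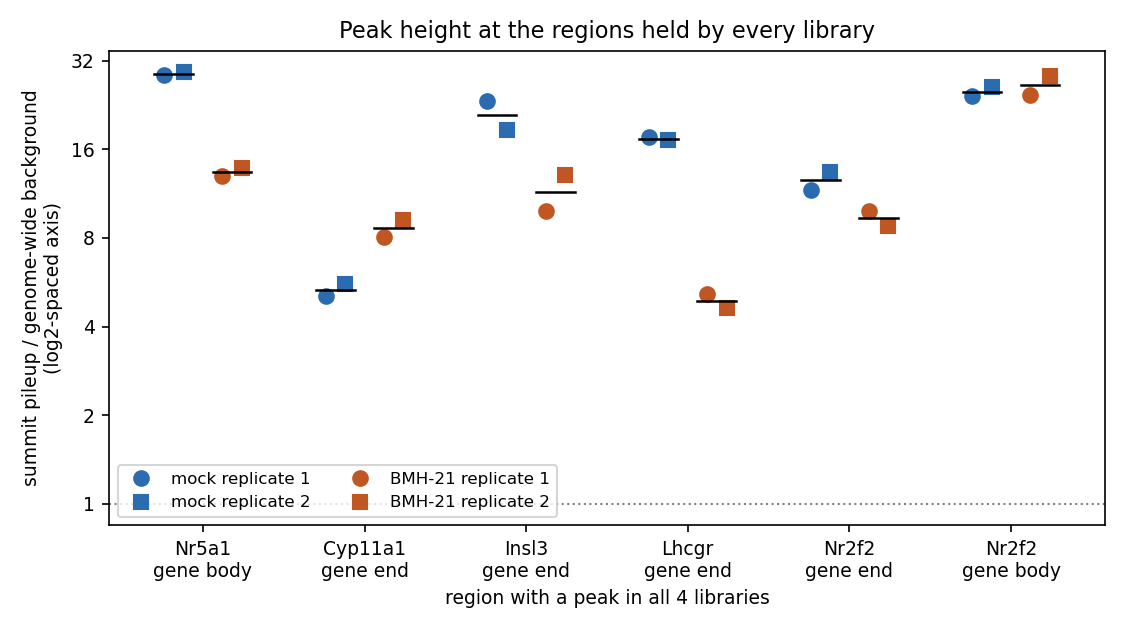
Level (summit pileup over the genome-wide background of the library, log2-spaced axis) at the 6 regions with a peak in all 4 libraries, 1 point per library and a line at each group mean. The mock points lie above the BMH-21 points at 4 regions, below them at the Cyp11a1 start and among them in the middle of Nr2f2; the dotted line marks the genome-wide background.

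In the order of the mean level in mock, the inner region of Nr5a1 (28.9) was followed by the middle of Nr2f2 (25.1), Insl3 (20.9), Lhcgr (17.4), the 3′ region of Nr2f2 (12.6) and Cyp11a1 (5.31). No neighbours in this order overlapped, except that the middle of Nr2f2 and Insl3 did when the 22.7 of the overlapping mock replicate 1 peak was used. After BMH-21 the order was the middle of Nr2f2 (26.4), Nr5a1 (13.4), Insl3 (11.5), the 3′ region of Nr2f2 (9.31), Cyp11a1 (8.66) and Lhcgr (4.89). There the values of Nr5a1 and Insl3 overlapped, as did those of the 3′ region of Nr2f2 and Cyp11a1, and Insl3 and the 3′ region of Nr2f2 shared a value of 9.87. Lhcgr thus moved from above Cyp11a1 to below it, with no overlap between their values in either group.

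The fold and the level differ by the local background. Around the inner region of Nr5a1 it was 9.86 and 9.68 times the genome-wide background in mock and 2.64 and 2.74 times after BMH-21. Around Insl3 it was 8.21 and 8.58 times in mock and 2.24 and 2.18 times after BMH-21. The ratios of 0.275 and 0.264 stood at percentiles 1.89 and 1.59 of the 16483 shared regions, whose median ratio was 0.964. The middle of Nr2f2 lay between, at 5.52, 5.86, 2.97 and 3.06 times, while around the starts of Cyp11a1 and Lhcgr the local background was 1.00 to 1.54 times in all libraries. A raised local background means fragments spread over the surroundings and not only under the peak; what it reflects at Nr5a1 and Insl3 was not tested.

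Among 16 further genes of steroid synthesis, 9 had an end peak in both mock libraries, 3 were mock-only and 6 were in all 4 libraries. Those in all 4 libraries were Hsd17b7, Srd5a1, Cyp19a1, Fdx1, Fdxr and Cyb5a. The mock-only genes were Srd5a2, a steroid 5α-reductase, with a mean mock percentile of 81.6, Cyp11b1, an adrenal 11β-hydroxylase, at 49.9, and Por, the electron donor of microsomal P450 enzymes, at 9.77. Hsd17b3, the enzyme of the last step to testosterone in the testis, had no peak in any library, and neither did Hsd3b2 and Hsd3b3, further members of the Hsd3b cluster. The share of mock-only genes among those with both mock peaks was 33.3%, beside 11.7% of the background. Srd5a2 and Por had peaks inside the gene in all 4 libraries, and over the whole gene 3 of 11 genes were mock-only. Of 16 genes of cholesterol supply, many of which serve every cell, 15 had an end peak in both mock libraries, 14 in all 4 and 0 were mock-only.

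Of 20 Leydig regulators and signalling genes, 16 had an end peak in both mock libraries, 13 were in all 4, and 2 were mock-only. These were Esr1, the oestrogen receptor alpha, at a mean mock percentile of 85.6, and Gata6, a GATA factor of gonadal somatic cells, at 14.9. Nr0b1, the X-linked repressor of NR5A1, had an end peak in all 4 libraries at a mean mock percentile of 87.0. Gata4 had no end peak but had peaks within the gene in all 4 libraries. The regulators were near the background share, with 12.5% mock-only of those with both mock end peaks. Esr1 and Gata6 also had peaks inside the gene in all 4 libraries, and over the whole gene 1 of 19 was mock-only.

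Markers of other somatic cells of the testis were counted in the same way. Of 12 leukocyte genes, 7 had an end peak in both mock libraries and 5 of these were mock-only (71.4%), led by C1qc, C1qa and Tyrobp, genes of complement and of myeloid signalling. Of 12 peritubular and fibroblast genes, 3 of 7 were mock-only (42.9%), namely Col1a2, Lama2 and Pdgfrb. Pdgfrb had a peak inside the gene in both BMH-21 libraries. Of 14 Sertoli cell genes, 4 of 12 were mock-only (33.3%), led by Kitl, Amhr2 and Inha. Amhr2 had a peak inside the gene in BMH-21 replicate 2. In 1 Sertoli gene, the X-linked Rhox5, only the BMH-21 libraries had an end peak, with peaks inside the gene in all 4 libraries. Of 9 endothelial genes, 2 of 4 were mock-only at an end (50.0%), Cdh5 and Tie1, but both had peaks inside the gene in all 4 libraries. Of the pachytene genes, 0 of 20 were mock-only, and the background share was 11.7%. End peaks in all 4 libraries were found at 1 leukocyte gene (Cd68) and 2 endothelial genes (Kdr and Flt1). They were also found at 4 peritubular and fibroblast genes (Myh11, Cnn1, Des and Col1a1) and 5 Sertoli genes (Amh, Cldn11, Inhbb, Trf and Wt1). Over the whole gene with 1 kb on either side, the mock-only number was 8 of 10 for leukocytes. For peritubular cells and fibroblasts it was 3 of 9 (Col1a2, Lama2 and Dcn). It was 3 of 14 for Sertoli cells, 0 of 7 for endothelium and 0 of 22 for pachytene genes, beside 9.05% of the background.

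Defining genes of several of these cell types had no end peak in any library, among them Ptprc and Adgre1 for leukocytes, Acta2 and Dcn for peritubular cells and fibroblasts, and Pecam1 and Tek for endothelium. Inside the gene, however, Pecam1 had peaks in all 4 libraries, Dcn in both mock libraries and Adgre1 in mock replicate 2. By library, the number of genes with an end peak was 7, 8, 1 and 2 for leukocytes, 7, 9, 5 and 5 for peritubular cells and fibroblasts, 12, 13, 7 and 8 for Sertoli cells and 4, 4, 2 and 2 for endothelium. It was 7, 7, 4 and 4 for the 10 Leydig and steroidogenic genes and 20, 21, 20 and 19 for the pachytene genes, while 70.9, 71.5, 61.5 and 62.0% of autosomal protein-coding genes had one. All 4 somatic lists thus had fewer genes with an end peak in both BMH-21 libraries, as did the Leydig genes, but over the whole gene the endothelial list had 7 in every library. Their part in the result was not tested. By fold, the strongest end peaks of the 7 Leydig and steroidogenic genes that had one in mock ranked below those of the background. Their medians were at percentiles 47.9 and 64.4 in the mock lists, beside 86.5 and 86.7 for autosomal protein-coding genes. For the 4 genes with an end peak in the BMH-21 lists they were 59.7 and 63.2, beside 80.3 and 80.9. By pileup, some ranked high: the end peaks of Insl3 and Nr5a1 in mock replicate 1, at percentiles 9.30 and 3.27 by fold, were at 91.3 and 89.6. Whether peak strength bears on the mock-only share of these genes was not tested.

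**Figure D4:**
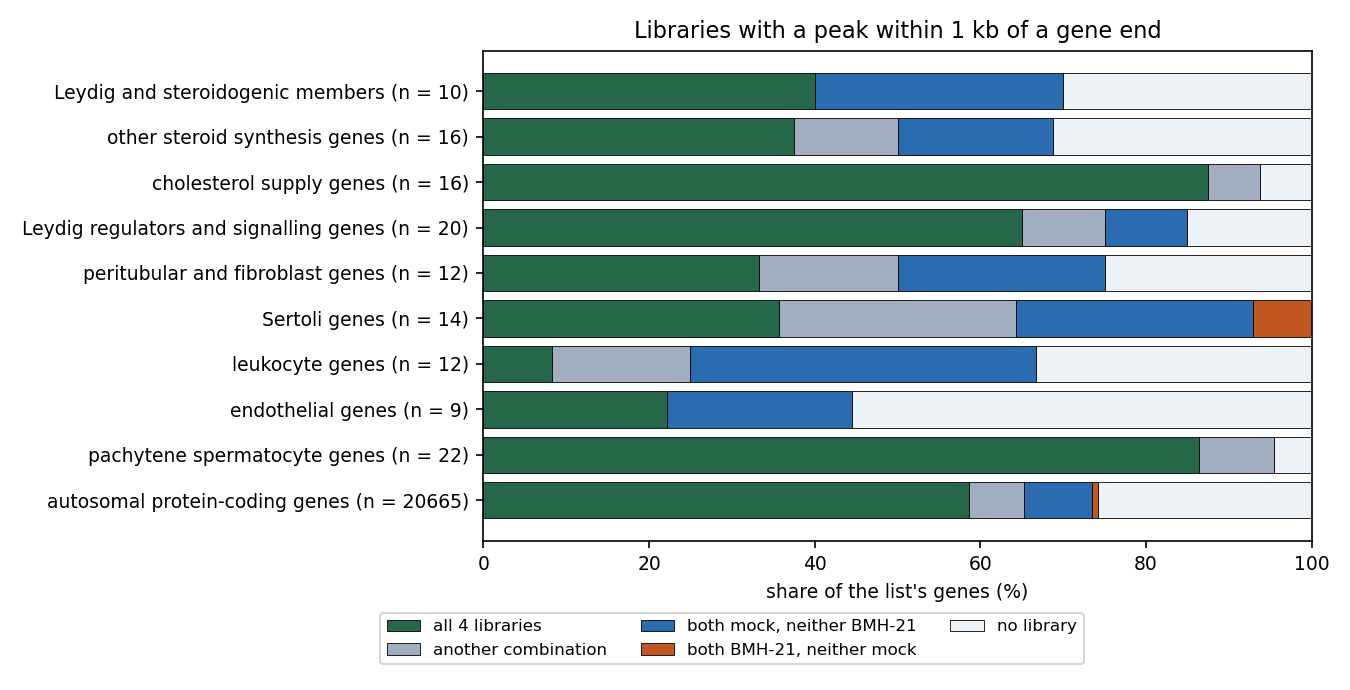
Share of the genes of each list (horizontal axis, percent) by the libraries that had an end peak, for the 10 Leydig and steroidogenic genes, the 8 other lists and all autosomal protein-coding genes. The mock-only segment (blue) is absent for the cholesterol supply and pachytene genes and is 3 of 10 for the Leydig and steroidogenic genes.

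For each mock-only member, the protein-coding genes of the same pattern with the nearest pair of mock percentiles were listed, out of 1734 compared, with the Euclidean distance in percentile points as the measure over 2 libraries. Those nearest to Star were Ccdc88b (distance 0.593), Fbxl18 (1.35) and H3f3c (1.65). Those nearest to Nr5a1 were Cdh15 (0.608), Tbc1d5 (0.633) and Eppk1 (0.652). Those nearest to Tcf21 were Pcdhb15 (0.207), Neto1 (1.15) and Lep (1.17). The likeness is in pattern and rank only.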

How the data were processed

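ATAC-seq peak lists of 4 libraries (2 mock, 2 BMH-21) were used. Per the submitters' processing notes, fastp, Bowtie2, bedtools, deepTools and MACS2 2.1.0 were applied; their settings are not given in the sources used here, nor is the treatment of duplicate or mitochondrial reads. Each deposited list was called on 1 library and gives per peak, by the authors, a fold (ratio of summit pileup to local background), a −log10 p-value and −log10 q-value, a score of 10 times the −log10 q, which was not used, and a summit offset. None is normalised between libraries, and total read depth is unknown. The smallest −log10 q was 2.01 to 2.09. A missing peak means one below the caller's threshold, not closed chromatin.

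The notes name mm39 and mm10; coordinates were taken as mm10 (GRCm38), because chromosome 1 peaks reach 195371801, past its end in mm39. Gene ends came from RefSeq (GRCm38.p6), with a minimum overlap of 1 bp and positions counted from 1. Pileup and local background were solved from fold and p under the caller's Poisson relation (largest error 0.000799 in −log10 p), and each list's smallest background served as the genome-wide one. This level measure and the rank by pileup were added after seeing the data.

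The members and the 8 other lists were chosen with earlier results of these data known. Named from those lists were genes found in only 1 group, plus Hsd17b3, Nr0b1 and Gata4 in every case. Those found in only 1 group were at most 5 per steroid list and 3 per comparison list, by mean mock percentile. Hsd3b2, Hsd3b3, Rhox5, the pachytene examples and the marker genes without a peak were chosen after their values were seen. So were the steroid synthesis and somatic genes with an end peak in all 4 libraries, all of which are named. Alternatives were a −log10 q of at least 5, lists of equal length, peaks of 100 bp on either side of the summit, windows of 500 bp and 2.5 kb, the same gene end required, rank by q, a replicate block and leaving out each library. Code (Python 3.11.15, numpy 2.4.6, pandas 2.3.3, scipy 1.17.1) was tested on simulated data.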

Additional observations from a re-analysis of the deposited data

How the results depend on the processing

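Of the 10 genes, 3 were mock-only and 4 had an end peak in all 4 libraries. With lists of equal length these numbers were 1 (Tcf21) and 2 (Lhcgr and Nr2f2), of 3 genes with both mock end peaks, and over the whole gene the mock-only number was 1 (Tcf21) in place of 2, while 7.18% of the background genes were mock-only at an end. In the lists of equal length, Cyp11a1 had an end peak in the BMH-21 libraries alone. A window of 500 bp also gave 1 mock-only gene over the whole gene (Tcf21). At gene ends, 500 bp gave Nr5a1 and Tcf21, and 2.5 kb gave Star and Tcf21, with Nr5a1 then in all 4 libraries. Without mock replicate 1, Cyp17a1 became the third mock-only gene over the whole gene; leaving out any 1 library, the stricter q-value, narrower peaks and the same-end rule left the named end genes as they were. The number of peaks differed by -12 and the bases by -5121 between the groups, and leaving out each library gave -15.5 to -8.5 peaks.

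With same-numbered libraries paired (replicate block), the differences were the same -12 peaks and -5121 bases, with an exact sign-flip p of 0.5, the smallest possible; nothing on the labels says that the numbers pair the samples.

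Measured by fold in place of level, the log2 ratio reversed at Nr5a1 (0.68) and Insl3 (0.96), where the mock local background was high; at the 3′ region of Nr2f2 it went from -0.43 to -0.037 and in its middle from 0.076 to 0.94. In the middle of Nr2f2, leaving out 1 library gave -0.037 to 0.18, with the negative value without BMH-21 replicate 2. Ranked by q-value, 9 of 12 group mean percentiles moved by more than the spread between replicates (shifts of -14.7 to 66.8, the largest at Nr5a1 in mock).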
